A study of Bos taurus with 48 samples.

Results

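The response of bovine leukocytes to weaning was examined as a treatment by day interaction on d 7: the change from d 0 to d 7 within each weaned calf was set against the same change within each control calf, to find genes that moved in opposite ways or in 1 treatment only. Libraries were chosen by their labels, and 24 of the 48 in the series belonged to these days. They came from 12 Continental calves, intact Simmental males by the study's methods, of which each gave 1 library on d 0 and 1 on d 7. The 6 weaned calves (1758, 1762, 1769, 1770, 1773 and 1809) were taken from their dams when they were moved indoors on d 0. The 6 control calves (1755, 1759, 1763, 1789, 1802 and 1803) were moved indoors on the same day together with their dams. The move indoors, and vaccination ahead of it, were thus shared by both groups. By the study's methods, control calves shared pens with their dams and weaned calves with other weaned calves, a social regrouping that went with the treatment. The d 0 blood was drawn ahead of housing, and a group without housing was not part of the comparison. The libraries held mRNA of total blood leukocytes, a mixture of cell types, in which fewer cells of a type and less RNA per cell cannot be told apart. Each value is a number of reads on an Ensembl gene, given here as CPM (counts scaled to a common library size) after scaling by the trimmed mean of M-values (TMM). Total counts lay between 1992050 and 4119875 per library, with a median of 3448362. A level of 3 counts, below which a gene was treated as not measurable, corresponded to 0.728 to 1.51 CPM by these totals, before TMM scaling. On the TMM scale of the values below it differs somewhat by library. The limit of 3 counts covers counting error only.

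Blood leukocytes of cattle are mainly lymphocytes and neutrophils, with monocytes, eosinophils and a few basophils. Stress hormones such as cortisol alter how these cells are shared between blood, marrow and tissue, and lymphocytes also divide, so that cell cycle genes in blood reflect a small dividing pool. Cytokines, adhesion receptors and G protein-coupled receptors direct the traffic and activation of these cells.

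Some libraries went against their labels. Over the 100 genes that differed most between calves relative to their spread within a calf, chosen without calves 1755, 1758 and 1770, 44 of the 48 libraries of the series correlated best with the other libraries of their own calf, with a mean Pearson r of at least 0.34, as a description across genes that are not independent of each other. For the calves used in that choice, it favours a match with their own calf. The library labelled 1758 on d 7 had a mean r of 0.59 with the earlier libraries of calf 1770 and of 0.29 with those of calf 1758 on d 1 and d 2. The library labelled 1770 on d 7 had a mean r of 0.54 with calf 1758 on d 1 and d 2 and of 0.10 with the earlier libraries of its own calf. The library labelled weaned calf 1758 on d 0 was closest to a library labelled control calf 1755 on d 2, at r = 0.65, and had r = 0.19 and 0.13 with its own calf on d 1 and d 2. The library labelled 1755 on d 2, which enters the d 2 values and the fit of all 48 libraries, had a mean r of -0.19 with its own calf. The libraries labelled weaned calves 1758 and 1770 were kept as labelled, and results are also given without these calves.

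Library depth and makeup moved with the comparison as well. In control calves, the number of genes with at least 1 count was 13965 to 14502 (median 14060.5) on d 0 and 13179 to 14131 (median 13815.5) on d 7, and in weaned calves it was 13964 to 14550 (median 14046.5) and 13692 to 14950 (median 14296.5). The first principal component of the 24 libraries, over 9051 genes with a mean above 10 CPM, took 56.5% of the variance. It was higher on d 7 than on d 0 in 6 of 6 control calves, by 12.1 to 94.8 (median 40.3), whereas the 6 weaned calves ranged from -84.6 in the pair labelled 1758 to 18.5 in 1809 (median 3.47). Those changes differed between treatments by an exact two-sided permutation test (p = 0.00866, n = 6 and 6), and without calves 1758 and 1770 the exact p was 0.0524. By the study's lane assignments, both libraries of a calf had been run on the same flowcell for 4 of the 6 weaned and 2 of the 6 control calves, if the sampling numbers given there follow the order of the days, which the labels do not state. These were weaned calves 1758, 1762, 1769 and 1770 and control calves 1802 and 1803. Values among calves on 1 flowcell therefore include the doubted libraries of 1758 and 1770. The part of depth, of this component and of the flowcell in the gene results was not tested beyond the alternatives given here.

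**Figure D1:**
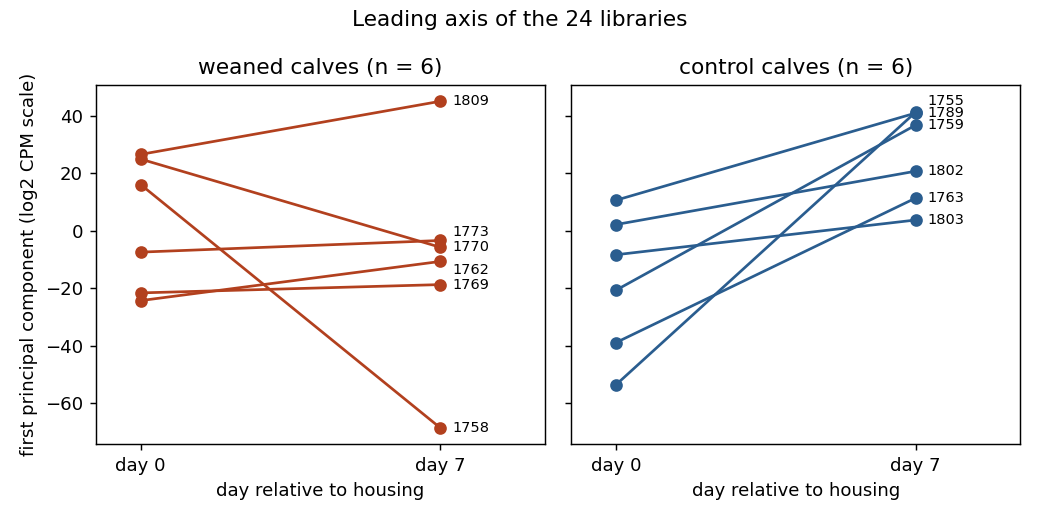
First principal component (log2 CPM scale) of each library on d 0 and d 7, with a line per calf labelled by its number, for 6 weaned calves (left) and 6 control calves (right). All 6 control lines go up, by 12.1 to 94.8, and the line labelled 1758 goes down, with a change of -84.6.

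The question put to these libraries was which genes changed differently by d 7 in weaned calves than in housed controls. Many genes had a small unadjusted p for that difference, in both directions, but by edgeR with calf as a block no single gene passed the threshold for it, while DESeq2 and some other settings made calls. Of 14713 genes in edgeR's quasi-likelihood fit, with calf as a block and an F-test, 0 (0%) had a Benjamini-Hochberg adjusted p under 0.05 together with a difference of at least 2-fold, and the smallest adjusted p was 0.081. The unadjusted p was under 0.05 in 5268 genes (35.8%), of which the weaned change was the higher in 3092 (21% of those tested) and the lower in 2176 (14.8%). By DESeq2, 950 genes were called, 887 of them with the higher change in weaned calves. Limma-voom called 0, and edgeR without a filter on low counts called 625. Scaling by library totals alone shifted the split at unadjusted p under 0.05 to 3374 higher and 1457 lower. Without calves 1758 and 1770, 1902 genes had an unadjusted p under 0.05 and 0 were called, and leaving out 1 calf at a time gave 3494 (without 1755) to 5882 (without 1803) such genes. With the share of reads kept, or the share of counts in the top 100 genes, as a covariate, 2266 and 2160 genes had such a p. With the first principal component as a covariate, chosen after seeing the data, 411 genes had it. Here and below, that covariate was computed from these same libraries, and its own change differed between treatments by the test above. It therefore takes out part of the difference under test. Lower counts, smaller differences or turned signs with it do not show whether a difference holds. Flowcell in place of calf gave 1216 calls. Among the 6 calves whose libraries shared a flowcell, 206 genes had an unadjusted p under 0.05 and 0 were called.

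Taken by treatment, all calls were made in the control calves, which does not by itself show a difference between the treatments, since the test of that difference called 0 genes. In the same test, 45 genes rose (0.306%) and 361 fell (2.45%) at least 2-fold from d 0 to d 7 in control calves at an adjusted p under 0.05, and 5716 (38.8%) had an unadjusted p under 0.05. In weaned calves 0 genes passed by edgeR, by DESeq2 or by limma-voom, the smallest adjusted p by edgeR was 0.927, and 475 (3.23%) had an unadjusted p under 0.05. Over the 361 genes that fell in control calves the median log2 change was -1.11 in control and 0.21 in weaned calves, and for 348 of them the difference, too, had an unadjusted p under 0.05, which uses the same control libraries. The 45 genes that rose had a median log2 change of 1.26 in control and 0.07 in weaned calves. The count of 406 moved with single animals of both treatments. It became 0 without control calf 1755, 1759 or 1763, where 3170, 4128 and 4508 genes had an unadjusted p under 0.05, and 1 without 1789. It was 220, 161 and 151 without the weaned calves 1762, 1769 and 1773. Without 1758 it was 663, and without 1803 it was 1017. With no calf block it was 1, by limma-voom it was 2, and among calves on 1 flowcell it was 0.

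Since edgeR with calf as a block called 0 genes for the difference, with 5268 at an unadjusted p under 0.05, 950 calls by DESeq2 and 0 by limma-voom, its calls left no gene to class as changed in 1 treatment or in opposite ways. As a description chosen after the values were seen, the 5268 genes were divided in the same way. In 4349 of them only the control change had an unadjusted p under 0.05, in 187 only the weaned change, in 97.00 both with opposite signs, in 1. both with the same sign, and in 634 neither. Estimated changes had opposite signs in 96.9% of the 5268 genes and in 73.7% of all 14713 genes tested, and a gene selected for a difference is more likely to show this. Genes with the higher change in weaned calves had a median log2 change of 0.23 in weaned and -0.78 in control calves and a median level of 28.8 CPM. Those with the lower change in weaned calves had medians of -0.15 and 0.36 and a level of 116 CPM, against 22.3 CPM over all genes tested. Within-calf changes of the 6 weaned calves lay wholly above those of the 6 control calves in 254 genes (1.73%) and wholly below in 118 (0.802%).

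**Figure D2:**
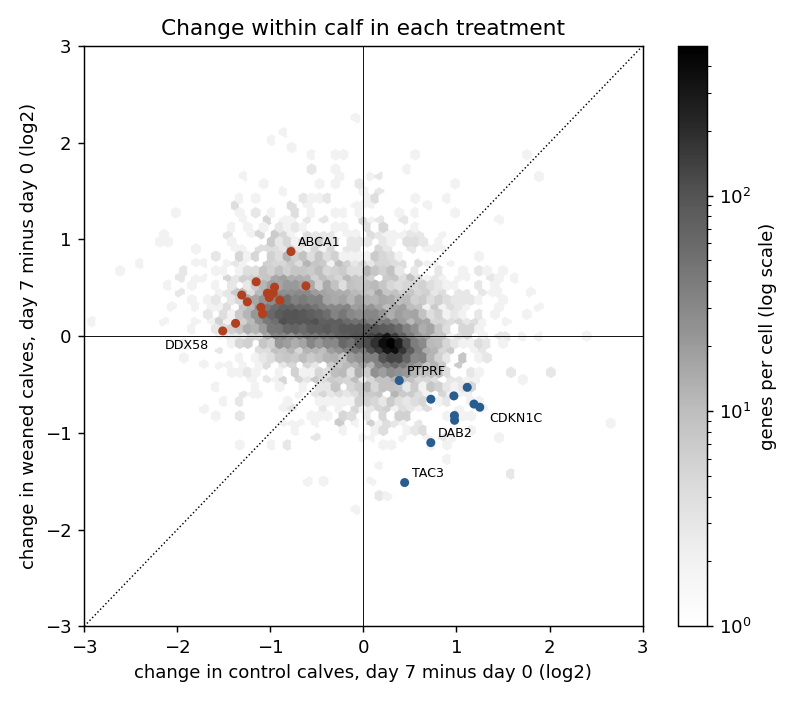
Log2 change from d 0 to d 7 in control calves (horizontal axis) and weaned calves (vertical axis), with grey cells shaded by the number of genes on a log scale, for 14653 of the 14713 genes tested (60 lie beyond the axes). Coloured points are the named genes with the smallest p for the difference and a mean of at least 1 CPM (red, weaned change higher; blue, weaned change lower); the dotted line marks equal changes. COL1A1 lies beyond the axes, and most genes lie at the upper left and the lower right.

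The table holds Ensembl identifiers without symbols, so names were available for 644 of the 25669 genes, 633 of them tested. Names came through the human orthologs in the study's supplementary tables, which list genes the study had called in these same libraries. Named genes are therefore no independent sample: 307 of the 633 (48.5%) had an unadjusted p under 0.05 for the difference, 263 (41.5%) with the higher and 44 (6.95%) with the lower change in weaned calves, and their median log2 difference was 1.13 against 0.03 over all genes. Among genes without a symbol, ENSBTAG00000004881 and ENSBTAG00000014906 had the smallest p with the higher change in weaned calves, and ENSBTAG00000011820 and ENSBTAG00000006566 with the lower. For ENSBTAG00000004881, weaned calves had 21.7 to 52.7 CPM (median 29.8) on d 0 and 31.2 to 53.1 CPM (median 46.2) on d 7, and control calves 28.1 to 60.8 CPM (median 48.03) and 18.4 to 35.1 CPM (median 26.1), a log2 difference of 1.25 ± 0.26 (SE). For ENSBTAG00000011820, weaned calves had 37.6 to 59.9 CPM (median 43.4) and 22.03 to 50.9 CPM (median 31.4), and control calves 19.9 to 47.2 CPM (median 37.1) and 47.6 to 116 CPM (median 58.6), a log2 difference of -1.25 ± 0.25 (SE). On d 7 the control libraries of the latter gene reached well above the weaned ones, with a slight overlap. ENSBTAG00000014906 had a log2 difference of 1.14 and ENSBTAG00000006566 of -1.36, and all 4 had an adjusted p of 0.081.

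Of the named genes, 6 were taken for the smallest p for the difference among those with opposite changes, both at an unadjusted p under 0.05. By edgeR, the adjusted p was 0.938 for each of their weaned changes. For the control change it was 0.0334 for CDKN1C, 0.0461 for CLU, and 0.0558 to 0.103 for TGM2, CEP78, ABCA1 and PTPRF. CDKN1C, CLU, TGM2 and PTPRF were lower on d 7 in weaned and higher in control calves. ABCA1 and CEP78 had the reverse pattern. Each had an adjusted p of 0.081 for the difference by edgeR. By DESeq2 it was 0.0166 to 0.0266, while limma-voom called 0 genes. Here and below, genes named for a small p were chosen on the same difference in the same libraries, so their exact permutation p describes that choice and is no further support. CDKN1C encodes the cyclin-dependent kinase inhibitor p57, a brake on cell division. Its level ran from 4.03 to 14.6 CPM (median 6.96) on d 0 and 2.7 to 5.63 CPM (median 4.57) on d 7 in weaned calves, and from 2.31 to 16.2 CPM (median 3.18) and 4.5 to 30.3 CPM (median 8.8) in control calves. On d 7 most control libraries were above the weaned ones, with some overlap, and on d 0 the groups overlapped. It was lower on d 7 in 5 of 6 weaned calves and rose in control calves, in 6 of 6 pairs (adjusted p = 0.0334 by edgeR), with log2 changes of -0.74 in weaned and 1.25 in control calves, a difference of -1.99 ± 0.41 (SE) and an exact permutation p of 0.00433 (n = 6 and 6). CLU, the secreted chaperone clusterin, ran from 10.1 to 28.3 CPM (median 18.02) on d 0 and 3.15 to 28.3 CPM (median 11.02) on d 7 in weaned calves, and from 6.6 to 23.5 CPM (median 12.7) and 14.03 to 92.5 CPM (median 19.2) in control calves. Control calves were higher on d 7 in 6 of 6 pairs and weaned calves lower in 4 of 6, while the levels of the groups overlapped on both days. The log2 difference of CLU was -1.80 ± 0.43 (SE), with an exact permutation p of 0.00649. TGM2, a transglutaminase that crosslinks proteins, ran from 4.85 to 11.6 CPM (median 9.57) on d 0 and 1.31 to 13.2 CPM (median 4.95) on d 7 in weaned calves, and from 3.75 to 10.6 CPM (median 6.22) and 6.49 to 31.9 CPM (median 10.7) in control calves. Its changes were -0.87 in weaned and 0.98 in control calves (exact permutation p = 0.00649), and 5 of 6 calves of each treatment followed these directions, with overlap between the groups on both days. PTPRF, a receptor tyrosine phosphatase and the most abundant of these genes, had a smaller difference of -0.84 ± 0.24 (SE), and ran from 126 to 352 CPM (median 260.1) on d 0 and 121 to 274 CPM (median 166) on d 7 in weaned calves, and from 145 to 306 CPM (median 176) and 183 to 368 CPM (median 255) in control calves. Its groups overlapped on both days.

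ABCA1, the transporter that exports cholesterol from cells, ran from 44.2 to 73.1 CPM (median 66.3) on d 0 and 50.7 to 229 CPM (median 96.3) on d 7 in weaned calves, and from 57.6 to 123 CPM (median 89.5) and 23.04 to 149 CPM (median 41.7) in control calves. Levels overlapped on both days; ABCA1 was higher on d 7 in 5 of 6 weaned calves, and in control calves 4 were lower and 2 higher. The log2 changes of ABCA1 were 0.87 in weaned and -0.78 in control calves, with a difference of 1.65 ± 0.43 (SE) and an exact permutation p of 0.0173. CEP78, a centrosomal protein, ran from 16.2 to 42.3 CPM (median 21.9) on d 0 and 20.1 to 52.5 CPM (median 36.2) on d 7 in weaned calves, and from 20.3 to 42.8 CPM (median 30.99) and 12.8 to 28.8 CPM (median 19.9) in control calves. Weaned and control levels overlapped on d 7, and CEP78 was lower in 6 of 6 control and higher in 5 of 6 weaned calves, with a log2 difference of 1.14 ± 0.32 (SE) (exact permutation p = 0.00433). Without calves 1758 and 1770 the differences of these 6 genes kept their signs, at -1.77 for CDKN1C, -1.32 for CLU, -1.35 for TGM2, -0.58 for PTPRF, 1.10 for ABCA1 and 0.70 for CEP78. Over these genes the exact permutation p without both calves lay between 0.0143 and 0.0952.

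**Figure D3:**
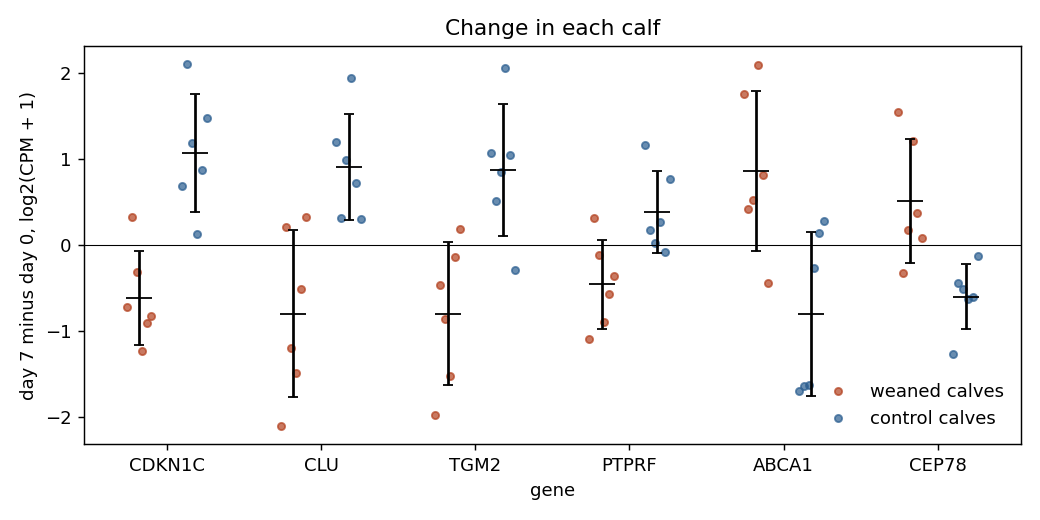
Change in each calf (points; day 7 minus day 0 of log2(CPM + 1)) for the 6 genes with opposite changes, with the mean and SD of 6 weaned (red) and 6 control calves (blue). For CDKN1C the 6 control points lie above 0 and 5 of the 6 weaned points below it.

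The 12 named genes with the smallest p among those with the higher change in weaned calves all fell in control calves by the adjusted p, 9 of them at least 2-fold, and 0 changed in weaned calves by it. They were IARS and LARS (the isoleucyl- and leucyl-tRNA synthetases), TEC (a kinase of lymphocyte receptor signalling), BTLA (an inhibitory receptor of lymphocytes), STXBP3 (a regulator of vesicle fusion), ATP6V1D (a subunit of the proton pump of lysosomes), MCM10 (a replication factor), DDX58 (the viral RNA sensor RIG-I), BCL2 (a survival protein), ATG4C (a protease of autophagy), KYNU (kynureninase, of tryptophan breakdown) and PKN2 (a serine/threonine kinase). Each was lower on d 7 in 6 of 6 control calves, with log2 changes from -1.51 for DDX58 to -0.90 for BCL2, an adjusted p of 0.0331 to 0.0358 and log2 changes of 0.05 to 0.56 in weaned calves. Before housing, each was already lower in weaned than in control calves, by log2 values of -0.73 (BTLA) to -0.25 (BCL2). By edgeR, the unadjusted p of this d 0 gap was 0.0078 for IARS, 0.0138 for ATP6V1D and 0.0248 for ATG4C. It was 0.0319 for LARS, 0.042 for BTLA and 0.0484 for MCM10, beside 6.23% of all genes under 0.05. The adjusted p was 0.624 or above. Without control calf 1755, 1759, 1763 or 1789, with no calf block or by limma-voom, 0 genes fell in control calves by the adjusted p. For DDX58, levels ran from 62.9 to 147 CPM (median 82.6) on d 0 and 58.3 to 198 CPM (median 80.96) on d 7 in weaned calves, and from 60.05 to 204 CPM (median 126) and 21.8 to 68.9 CPM (median 38.4) in control calves. The control libraries of d 7 were mostly below those of d 0, while the weaned days overlapped almost wholly. Its log2 difference was 1.56 ± 0.39 (SE) with an exact permutation p of 0.00866. MCM10 ran from 7.4 to 18.6 CPM (median 12.4) on d 0 and 6.48 to 28.1 CPM (median 13.03) on d 7 in weaned calves, and from 13.3 to 26.5 CPM (median 17.5) and 4.61 to 12.4 CPM (median 6.12) in control calves. Every control library of d 0 was above every control library of d 7, and the log2 difference was 1.51 ± 0.36 (SE). BTLA ran from 6.22 to 16.4 CPM (median 12.3) on d 0 and 4.72 to 42.3 CPM (median 16.6) on d 7 in weaned calves, and from 10.7 to 31.8 CPM (median 15.8) and 4.82 to 11.3 CPM (median 8.36) in control calves. For BTLA, as a result of the choice by p, every weaned change lay above every control change (exact permutation p = 0.00216, the smallest that the 924 splits allow), and this also held for IARS, STXBP3, ATP6V1D, BCL2, LARS, ATG4C and KYNU. Over all genes tested, 1.73% had it. IARS ran from 53.01 to 99.6 CPM (median 74.1) on d 0 and 54.8 to 180.4 CPM (median 83.9) on d 7 in weaned calves, and from 77.4 to 174 CPM (median 109) and 33.2 to 77.3 CPM (median 55.2) in control calves. Its control days nearly met, with 77.4 CPM as the lowest on d 0 and 77.3 CPM as the highest on d 7. Its weaned days overlapped, and its log2 difference was 1.40 ± 0.33 (SE). Without calves 1758 and 1770, BTLA, DDX58 and KYNU had differences of 1.13, 0.98 and 0.99. All 12 had an adjusted p of 0.081 for the difference by edgeR, and of 0.0166 to 0.02555 by DESeq2. Their log2 differences without calves 1758 and 1770 were 0.92 to 1.31 against 1.27 to 1.73 with them. With the first principal component as a covariate, chosen after seeing the data, they were 0.26 to 1.06, lowest for LARS (0.26), IARS (0.36), PKN2 (0.36), STXBP3 (0.46) and KYNU (0.47). Among calves on 1 flowcell they were 0.68 to 1.86, with 0.68 for MCM10, 0.69 for BCL2 and 0.84 for IARS.

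In the other direction, the 12 named genes included CDKN1C, CLU, TGM2 and PTPRF, given above, and TAC3, HBB, FBP1, HIC1, DAB2, CES2, COL1A1 and CCL22. TAC3, the precursor of the peptide neurokinin B, ran from 3.69 to 11.96 CPM (median 8.64) on d 0 and 0.788 to 5.4 CPM (median 3.12) on d 7 in weaned calves, and from 1.12 to 14.5 CPM (median 6.41) and 3.78 to 34.3 CPM (median 5.83) in control calves. On d 7 the groups overlapped, and TAC3 was lower in 5 of 6 weaned calves and split 3 to 3 in control calves, with log2 changes of -1.51 in weaned and 0.44 in control calves and a difference of -1.96 ± 0.52 (SE) (exact permutation p = 0.013). FBP1, the gluconeogenic enzyme fructose-1,6-bisphosphatase, rose in control calves (log2 change 1.19, adjusted p = 0.0432 by edgeR), although only 4 of the 6 calves were higher. Its level ran from 6.9 to 30.2 CPM (median 21.3) on d 0 and 5.98 to 21.7 CPM (median 12.01) on d 7 in weaned calves, and from 12.5 to 31.01 CPM (median 23.3) and 20.5 to 127 CPM (median 50.6) in control calves. On d 7 the control libraries were above the weaned ones with a slight overlap, and the log2 difference of FBP1 was -1.89 ± 0.51 (SE). HIC1, a transcriptional repressor, ran from 22.8 to 63.6 CPM (median 38.3) on d 0 and 12.4 to 52.6 CPM (median 23.7) on d 7 in weaned calves, and from 9.75 to 26.7 CPM (median 21.2) and 18.04 to 54.00 CPM (median 34.1) in control calves. It was higher on d 7 in 6 of 6 control calves, with a difference of -1.38 ± 0.40 (SE), but the groups overlapped on d 7 and the larger gap between them was on d 0. DAB2, an endocytic adaptor, had log2 changes of -1.10 in weaned and 0.72 in control calves, and CES2, a carboxylesterase, of -0.53 in weaned and 1.12 in control calves, at a mean of 1.8 CPM, close to the level of 3 counts. CCL22, a chemokine for T cells, was at or under 1.43 CPM in the 24 libraries of d 0 and d 7, about the level of 3 counts, and no fold is given.

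Genes of cell division shared the pattern of the named genes as a whole. Of the mitosis list 12 of its 49 genes were tested, and all 12 had the higher change in weaned calves, 7 of them at an unadjusted p under 0.05 (41.5% of named and 21% of all genes), with a median log2 difference of 1.34 (weaned 0.35, control -0.89). By the adjusted p, 4 of the 12 fell in control calves and 0 in weaned calves, against 115 of 633 named genes (18.2%) and 1474 of all 14713 (10%) that fell in control calves. Of the DNA replication list 6 of its 47 genes were tested; all 6 had the higher change in weaned calves, 5 at an unadjusted p under 0.05, with a median of 1.21. Named genes had a median of 1.13, and these lists hold genes the study had picked, so nothing particular to them can be read from it. NUF2, which links kinetochores to the spindle, ran from 0.6 to 4.83 CPM (median 2.85) on d 0 and 1.89 to 14.4 CPM (median 4.11) on d 7 in weaned calves, and from 1.74 to 9.23 CPM (median 4.77) and 0.576 to 2.43 CPM (median 0.882) in control calves. On d 7 the overlap was slight, and NUF2 was lower in 5 of 6 control and higher in 5 of 6 weaned calves, with a log2 difference of 2.57 ± 0.72 (SE). Only 2 of the 6 control libraries of d 7 held over 3 counts of NUF2, and 3 of CDC25C, so the size of these differences is uncertain. CDC25C, the phosphatase that starts mitosis, had log2 changes of 0.46 in weaned and -1.21 in control calves, and BUB1B, of the spindle checkpoint, of 0.20 in weaned and -1.17 in control calves. SMC4, a condensin subunit and the most abundant of the 12, had a difference of 0.90 ± 0.44 (SE) (exact permutation p = 0.0952) and a change of 2.56 on the log2(CPM + 1) scale in the pair labelled 1758. BRCA1 and BRCA2, of DNA repair, had differences of 1.16 ± 0.40 (SE) and 1.06 ± 0.42 (SE). Without calves 1758 and 1770, SMC4, BRCA1 and BRCA2 had differences of 0.44, 0.71 and 0.56. With the first principal component as a covariate, those of SMC4 and BRCA2 turned to -0.47 and -0.21. The medians without both calves were 0.81 for mitosis and 0.67 for DNA replication, beside 0.66 for all named genes.

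Immune signalling genes with a name were read against all named genes, most of which had the higher change in weaned calves. Of the interferon list 6 of its 50 genes were tested, with a median log2 difference of 1.28 and 3 genes at an unadjusted p under 0.05, all with the higher change in weaned calves. By the adjusted p, 3 of the 6 fell in control calves, DDX58 and JAK2 among them, and 2 of these by at least 2-fold. Those 3 of 6 genes stand beside 48.5% of the named genes for the difference and 18.2% of them for the control fall, and without calves 1758 and 1770 the median of the list was 0.59, beside 0.66 for the named genes. JAK2, the kinase of many cytokine receptors, ran from 20.1 to 47.3 CPM (median 40.6) on d 0 and 17.3 to 124 CPM (median 38.6) on d 7 in weaned calves, and from 20.6 to 87.3 CPM (median 53.8) and 19.4 to 37.5 CPM (median 26.4) in control calves. The groups overlapped on both days, and its log2 difference was 1.16 ± 0.35 (SE). CD274, the checkpoint ligand PD-L1, had log2 changes of 0.60 in weaned and -1.27 in control calves (exact permutation p = 0.0303). Of the cytokine and chemokine list 18 of its 61 genes were tested, 4 with the higher and 2 with the lower change in weaned calves at an unadjusted p under 0.05, and their median was 0.16, or 0.59 among calves on 1 flowcell. A difference in share between these 6 of 18 and the 307 of 633 named genes, or 35.8% of all genes, was not tested. KDR, a receptor of vascular growth factor, was higher on d 7 in 6 of 6 weaned calves and ran from 2.07 to 5.29 CPM (median 4.57) on d 0 and 3.78 to 20.7 CPM (median 6.31) on d 7 in weaned calves, and from 3.77 to 10.1 CPM (median 7.17) and 1.73 to 7.27 CPM (median 6.28) in control calves. The groups overlapped on d 7, and its log2 difference was 1.44 ± 0.43 (SE) (exact permutation p = 0.00433). LRPPRC, a mitochondrial RNA-binding protein which the study places in cytokine signalling, fell in control calves (log2 change -1.10, adjusted p = 0.0344 by edgeR) and had a difference of 1.39 ± 0.40 (SE). The differences of CD274, KDR and LRPPRC were 1.87, 1.44 and 1.39, and 1.18, 0.87 and 0.88 without calves 1758 and 1770. Over all 28 alternatives their lowest differences were 0.77, 0.44 and 0.11.

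Collagen and matrix genes were among the lists with the lower change in weaned calves. Of this list 9 of its 23 genes were tested, all 9 with the lower change in weaned calves and 4 of them at an unadjusted p under 0.05 (6.95% of named and 14.8% of all genes), with a median log2 change of -1.95 in weaned and 0.65 in control calves. COL1A1, a chain of type I collagen, ran from 1.34 to 182 CPM (median 66.8) on d 0 and 0 to 27.4 CPM (median 4.11) on d 7 in weaned calves, and from 1.64 to 66.05 CPM (median 16.5) and 6.77 to 175 CPM (median 15.7) in control calves. Levels of the treatments overlapped on both days. COL1A1 was lower on d 7 in 6 of 6 weaned and higher in 4 of 6 control calves, but the spread between calves was wide, from -6.83 in weaned calf 1769 to -0.28 in weaned calf 1762 on the log2(CPM + 1) scale. Its log2 difference was -3.92 ± 1.23 (SE) with an exact permutation p of 0.0303, and 0.0857 without calves 1758 and 1770. COL1A2, the other chain, had a difference of -4.18 ± 1.36 (SE) (exact permutation p = 0.0736), and COL3A1, of type III collagen, of -1.98 ± 1.25 (SE) (exact permutation p = 0.26). Among calves on 1 flowcell the differences were -6.44 for COL1A1, -7.44 for COL1A2 and -3.66 for COL3A1, and the median difference of the list was -3.66 against -1.98 among all calves. Over 3 counts of COL1A1, of COL1A2 and of COL3A1 were found in 3 of the 6 weaned libraries of d 7 each, so the size of these differences is uncertain. BGN, the proteoglycan biglycan, stayed at or under 2.3 CPM on d 0 and d 7. The weaned minus control median of the list was 1.58 on d 0 and -1.02 on d 7 on the log2 scale.

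Of the G protein signalling list 20 of its 53 genes were tested. Their median log2 difference was 0.25, which turned to -0.23 among calves on 1 flowcell. At an unadjusted p under 0.05, 4 had the higher and 1 the lower change in weaned calves. These shares were 21% and 14.8% over all genes, and 41.5% and 6.95% over named genes. Whether the shares of this list, the carriers or the haemostasis genes differed from those was not tested. PRKACB, a catalytic subunit of protein kinase A, ran from 31.2 to 53.7 CPM (median 41.2) on d 0 and 23.3 to 109 CPM (median 40.96) on d 7 in weaned calves, and from 35.4 to 77.02 CPM (median 47.1) and 18.4 to 40.8 CPM (median 25.4) in control calves. It was lower on d 7 in 5 of 6 control and 4 of 6 weaned calves, and its log2 difference was 1.03 ± 0.40 (SE), or 0.61 without calves 1758 and 1770. GNAI1, an inhibitory G protein subunit, and RGS1, which shortens G protein signals, had differences of 1.11 ± 0.50 (SE) and 1.03 ± 0.51 (SE), or 0.72 and 0.49 without calves 1758 and 1770. With the first principal component as a covariate, those of PRKACB and RGS1 turned to -0.25 and -0.0974. RGS13 stayed at or under 0.788 CPM and exceeded 3 counts in 0 of the 24 libraries of d 0 and d 7, and no fold is given. Of the solute carrier list 15 of its 29 genes were tested, with 3 higher and 1 lower beside 21% and 14.8% of all genes. Their median of 0.82 became 0.10 without calves 1758 and 1770. SLC6A2, the noradrenaline transporter, was higher on d 7 in 6 of 6 weaned calves, and ran from 0.592 to 10.1 CPM (median 3.34) on d 0 and 4.59 to 12.3 CPM (median 7.95) on d 7 in weaned calves, and from 0.914 to 8.98 CPM (median 3.32) and 0.27 to 8.26 CPM (median 1.87) in control calves. The groups overlapped on both days, with a log2 difference of 1.83 ± 0.78 (SE) (exact permutation p = 0.0628). SLC24A5, an ion exchanger, had a difference of 1.62 ± 0.58 (SE), or 1.07 without calves 1758 and 1770. With the first principal component as a covariate it was -0.0172. The water channel AQP1 was at or under 1.37 CPM on d 0 and d 7. Of the haemostasis list 8 of its 40 genes were tested, with 2 higher and 1 lower beside 21% and 14.8% of all genes. Their median was -0.13, or 0.17 among calves on 1 flowcell. ITGA2, the collagen-binding integrin subunit, was higher in 6 of 6 weaned calves but close to the limit of 3 counts, with a highest value of 3.68 CPM on d 7. PLA2G4A, a phospholipase that releases arachidonic acid, had log2 changes of 0.53 in weaned and -0.90 in control calves, and SELP, an adhesion molecule of platelets, of -0.16 in weaned and 0.71 in control calves. The log2 difference of SELP was -0.88 ± 0.34 (SE), -0.20 among calves on 1 flowcell and -1.08 without calves 1758 and 1770. THBS1, the platelet protein thrombospondin, was the most abundant of the list and had a difference of 0.02 ± 0.52 (SE).

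Other lists were nearly without names, so their genes stand for themselves. FOSB, an immediate early transcription factor, rose in control calves in 6 of 6 pairs (log2 change 1.56, adjusted p = 0.0331 by edgeR) and ran from 18.1 to 36.1 CPM (median 25.7) on d 0 and 18.6 to 53.4 CPM (median 38.8) on d 7 in weaned calves, and from 17.00 to 28.9 CPM (median 24.1) and 36.03 to 162 CPM (median 71.9) in control calves. The control days did not overlap and the weaned days did. Its log2 difference was -1.09 ± 0.36 (SE), and that of FOS, of the same family, was -0.35 ± 0.34 (SE), or -0.56 without calves 1758 and 1770, with log2 changes of 0.58 in weaned and 0.94 in control calves. By the adjusted p both rose in control calves, as did 2.05% of the named and 2.14% of all genes, and 2 of 28 genes of the list were tested. CDC40, a splicing factor and the only tested gene of 52 in its list, ran from 13.9 to 32.2 CPM (median 20.8) on d 0 and 14.8 to 76.4 CPM (median 25.4) on d 7 in weaned calves, and from 17.96 to 52.01 CPM (median 28.2) and 12.1 to 18.1 CPM (median 12.8) in control calves. Despite overlap on d 7, every weaned change lay above every control change, with a log2 difference of 1.49 ± 0.41 (SE) (exact permutation p = 0.00216). PSMC6, a proteasome subunit, was higher in 6 of 6 weaned and lower in 5 of 6 control calves, with a log2 difference of 1.96 ± 0.58 (SE); PSMA2, the other of 36 that was tested, had 1.00 ± 0.67 (SE), or 0.24 without calves 1758 and 1770. Control libraries of d 7 with over 3 counts of PSMC6 numbered 3 of 6. The gene paired with RPL5 had a difference of 2.26 ± 0.59 (SE) at a mean of 4.25 CPM, and the one paired with RPS4X at 0.306 CPM was too low to be read. Ribosomal proteins have many near-identical copies, and 2 of 57 were tested, so these counts are uncertain. The pair of genes matched to UQCRC2, of the respiratory chain, cannot be told apart by its symbol, with differences of 1.33 and 0.85, the latter 0.18 without calves 1758 and 1770. With the first principal component as a covariate, that latter gene had -0.61 and PSMA2 had -0.70. BCL2 was the only tested gene of the glucocorticoid response list and ABCA1 of the cholesterol list.

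**Figure D4:**
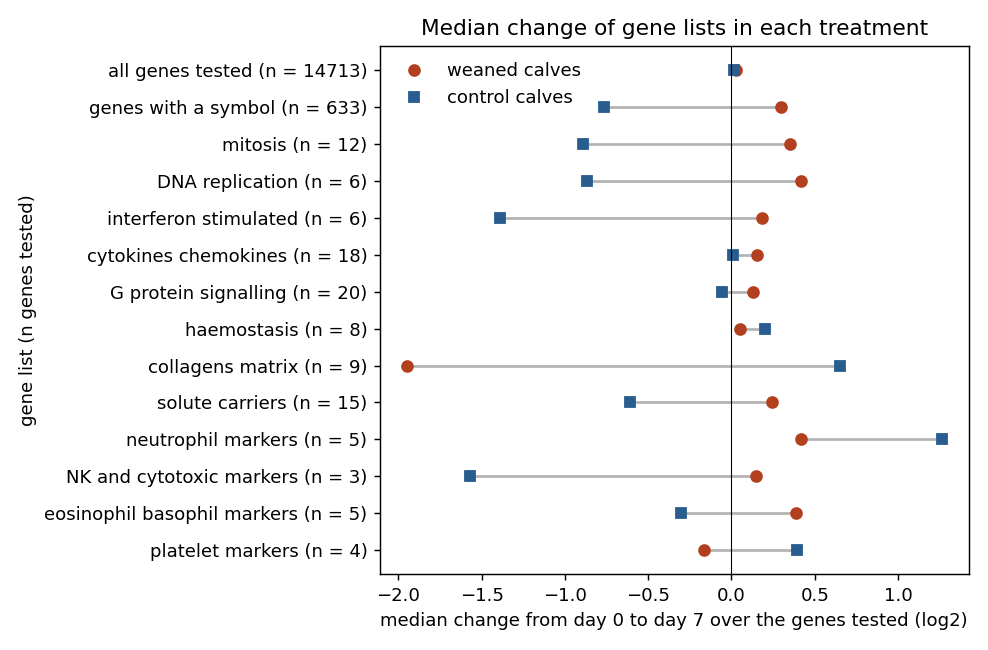
Median log2 change from d 0 to d 7 in weaned (red circles) and control calves (blue squares) for each gene list with at least 3 genes tested (n beside its name), with all genes tested and all named genes at the top. The collagen and matrix list has the lowest weaned median, at -1.95, and the NK and cytotoxic list the lowest control median, at -1.57.

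Cell composition could be followed only in part. No marker of B cells, plasma cells, monocytes or gamma delta T cells had a name, so the leukocyte label could not be checked against them, and of the T cell, neutrophil, cytotoxic, eosinophil and basophil, platelet and erythroid lists 2 of 22, 3 of 23 (as 5 genes), 3 of 18, 5 of 15, 4 of 15 and 2 of 16 markers were tested. The cytotoxic markers KLRD1, KLRK1 and GZMA, of natural killer and killer T cells, summed to 10.4 to 42.3 CPM (median 20.04) on d 0 and 6.92 to 78.2 CPM (median 23.9) on d 7 in weaned calves, and to 18.2 to 55.1 CPM (median 39.7) and 8.93 to 22.2 CPM (median 13.6) in control calves. GZMA, the granule protease granzyme A and by a small margin the most abundant of the 3, fell in control calves (log2 change -1.97, adjusted p = 0.0334 by edgeR, lower in 6 of 6). Its difference between treatments was 1.52 ± 0.67 (SE) (exact permutation p = 0.0866), and 0.65 without calves 1758 and 1770. The T cell markers, TRAT1 with the far weaker CTLA4, close to the level of 3 counts, summed to 17.1 to 50.6 CPM (median 29.3) and 17.00 to 103 CPM (median 28.9) in weaned, and to 17.96 to 53.5 CPM (median 32.8) and 10.7 to 24.6 CPM (median 13.5) in control calves. The groups overlapped on d 7 for both lists, and the log2 difference of TRAT1 was 1.01 ± 0.55 (SE), or 0.49 without calves 1758 and 1770. With the first principal component as a covariate, the differences of GZMA, TRAT1 and KLRK1 turned to -0.18, -0.67 and -0.05. Whether cell shares differed was not tested on these libraries.

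PGLYRP1, a granule protein of neutrophils, was higher on d 7 in 6 of 6 control calves, rose there (log2 change 1.43, adjusted p = 0.0339 by edgeR) and ran from 2.3 to 11.1 CPM (median 8.37) on d 0 and 3.41 to 17.6 CPM (median 4.83) on d 7 in weaned calves, and from 2. to 25.9 CPM (median 4.4) and 10.5 to 31.6 CPM (median 12.2) in control calves. Both days showed overlap between the treatments. The neutrophil markers, led by ALPL, summed to medians of 83.6 and 99.4 CPM in weaned and 72.7 and 119 CPM in control calves on d 0 and d 7. ALPL, an alkaline phosphatase of neutrophils, was higher on d 7 in 6 of 6 weaned and 3 of 6 control calves and had a difference of 0.40 ± 0.42 (SE), or 0.66 without calves 1758 and 1770. The difference of PGLYRP1 was -1.52 ± 0.51 (SE) and -0.92 without them. With the first principal component as a covariate it was 0.00863. Several bovine genes share the symbol CAMP, a cathelicidin, and the copy chosen by the rule for named genes was at or under 1.72 CPM on d 0 and d 7. Eosinophil and basophil markers were led by ALOX15, a lipoxygenase. On d 0 and d 7 they summed to medians of 206 and 170.5 CPM in weaned and 244 and 328 CPM in control calves. The log2 difference of ALOX15 was -0.98 ± 0.43 (SE). CPA3 and MS4A2, of basophils and mast cells, had 1.16 ± 0.69 (SE) and 1.00 ± 0.64 (SE), or 0.86 and 0.51 without calves 1758 and 1770. With the first principal component as a covariate, CPA3 and MS4A2 had -0.40 and -0.55. The erythroid markers HBB and ALAS2, of haemoglobin and haem synthesis, had the lower change in weaned calves, and summed to 9.06 to 19.8 CPM (median 13.7) and 4.46 to 11.05 CPM (median 7.97) in weaned and to 4.5 to 13.04 CPM (median 8.29) and 6.07 to 48.2 CPM (median 11.2) in control calves. HBB rose in control calves in 6 of 6 pairs by a log2 change of 0.97 (adjusted p = 0.047 by edgeR), short of 2-fold, and had a difference of -1.59 ± 0.43 (SE). Platelet markers, led by THBS1, summed to medians of 106 and 129 CPM in weaned and 137 and 125 CPM in control calves on d 0 and d 7, with PPBP, a platelet chemokine, at a difference of -0.60 ± 0.54 (SE) and GP5, a platelet glycoprotein, at or under 2.37 CPM on d 0 and d 7. The part of red cell, platelet or granulocyte RNA in the gene results was not tested.

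The interaction combines a difference before housing with one on d 7, and the medians moved in opposite ways. On d 0, edgeR called 0 of 13926 genes between weaned and control calves, and 867 (6.23%) had an unadjusted p under 0.05, a count that ran from 384 (without 1770) to 1907 (without 1789) when 1 calf was left out. On d 7 it called 0 of 13932, with 3552 (25.5%) at an unadjusted p under 0.05, and DESeq2 called 0 on d 0 and 28 on d 7. Without weaned calf 1809 the d 7 comparison called 1137 genes and 6000 had an unadjusted p under 0.05, and without 1758 there were 1731 at an unadjusted p under 0.05. Genes with the higher change in weaned calves had a median weaned minus control log2 difference of -0.37 on d 0 and 0.71 on d 7; those with the lower change had 0.17 and -0.31. For CDKN1C these values were 0.55 and -1.44, for MCM10 -0.56 and 1.00, for COL1A1 1.73 and -2.48, and for ABCA1 -0.58 and 1.03. Of the 73 named genes, 6 had the larger gap on d 0, among them HIC1 with 0.93 and -0.40 (unadjusted p = 0.00366 and 0.239), COL3A1 with 1.58 and -0.82, ALAS2 with 1.29 and -1.08, and ITGA2, whose counts are too low for a value. These genes were chosen on the difference between the same libraries, so the values are a description.

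On the days just after housing the same contrast gave fewer genes at an unadjusted p under 0.05. For d 1, edgeR called 0 of 14786 genes and 3301 (22.3%) had an unadjusted p under 0.05, and for d 2 it called 0 of 14733 with 1061 (7.2%); leaving out 1 calf moved these counts between 1745 and 4600 on d 1 and between 409 and 2856 on d 2. Without the calf block the counts were 681 on d 1 and 1251 on d 2. The d 2 values include the library labelled control calf 1755, which did not resemble its calf, and 409 is the count without that calf. The 3 contrasts share the d 0 libraries, so their values stand side by side only, and whether d 7 differed from d 1 or d 2 was not tested. For CDKN1C the log2 difference was -1.12, -1.17 and -1.99 over the 3 days. DDX58 had 0.66, 0.53 and 1.56, FOSB 0.61, 0.68 and -1.09, and COL1A1 -1.17, -3.73 and -3.92. List medians on the 3 days were 0.78, 0.74 and 1.34 for mitosis, and 1.11, 0.71 and -0.13 for haemostasis, beside 0.66, 0.66 and 1.13 for all named genes and 0.04, 0.05 and 0.03 over the genes tested on d 7.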

How the data were processed

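The authors deposited counts: the number of reads on each Ensembl gene, not normalised. By the study's methods, single reads were aligned to Btau4.0 with Bowtie 0.12.7 without mismatches, reads with several alignments were dropped, 1 read was kept per position and reads were counted with HTSeq 0.4.6p2; whether strand was used is not given in the sources used here. Counts of 24 libraries were fitted with edgeR 4.0.16 in R 4.3.3 (TMM, genes with at least 10 counts in total, quasi-likelihood F-test, calf as a block, a d 7 term for each treatment), and genes were called at an adjusted p under 0.05 and 2-fold. The calf numbers in the labels pair the libraries: day 0 and day 7 deviations from the group means correlated at -0.49 to 0.77 (median 0.28), above 0.1 in 8 of 12 calves. Single genes were compared by exact two-sided permutation of the treatments of 12 calves (924 splits, smallest p 0.00216) on changes of log2(CPM + 1).

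Named genes were the 12 with the smallest p in each direction, 6 with opposite changes each at an unadjusted p under 0.05, up to 4 of each list, and 11 listed by name; of the 75 genes this gave, 73 are reported. Members and lists were chosen with earlier results of these data known. Symbols came through human orthologs in the study's supplementary tables. Promoter motifs were not analysed here, as no sequences were used. Alternatives were RLE or no scaling factors, DESeq2 1.42.0, limma-voom 3.58.1, 2 other filters, a robust fit, no block, flowcell, all 48 libraries, 2 covariates, calves on 1 flowcell and leaving out calves; chosen after seeing the data were a covariate made of the first principal component, and the joint omission of calves 1758, 1759 and 1770. Procedures were tested on simulated data, but the outcome is not given here and lends no support to any result.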

Additional observations from a re-analysis of the deposited data

Results flagged for a closer look

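In groups of 6, a value was marked when it stood far from the other 5 for the range of its group (Dixon's 95% limit), which chance does in about 1 of 20 groups; of 146 groups of changes of named genes, 18 were marked. In weaned calves, the pair labelled 1758, whose libraries resembled those of other calves more than their own, had a change, on the log2(CPM + 1) scale, far above the others for LARS (1.76), NUF2 (3.27), SMC4 (2.56), BRCA2 (2.41), PRKACB (1.77), CDC40 (2.33), PSMC6 (2.04), SLC24A5 (2.73), TRAT1 (2.55), CPA3 (2.91), MS4A2 (2.54), and calf 1769 had one far below for COL3A1 (-6.05). In control calves, 1 calf was far above the others for DDX58 (-0.41), HBB (2.03), BUB1B (0.11), PLA2G4A (0.68), THBS1 (3.26) (1802 for DDX58 and PLA2G4A, 1789 for HBB, 1803 for BUB1B and THBS1), and 1755 was far below for ATG4C (-1.88). Among weaned libraries of d 0, the highest number of genes detected, 14550 in calf 1769, stood apart from the rest. No cause was tested.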

How the results depend on the processing

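For the difference on d 7, the number of genes called was 0 in edgeR with calf as a block and stayed 0 with no replicate block, with RLE factors or library totals, filterByExpr, a robust fit, all 48 libraries, both covariates, calves on 1 flowcell, limma-voom and without any calf (0 to 0). It was 950 by DESeq2, 1216 with flowcell in place of calf (no replicate block) and 625 with no filter on low counts. The cause was not tested. The change in control calves, 406 genes, became 1 with no replicate block, 2 by limma-voom, 672 without calves 1758 and 1770, 101 with the share of reads kept as a covariate, and 0 with the share of the top 100 genes or the first principal component as a covariate, with flowcell in place of calf, and among calves on 1 flowcell, a set with fewer samples; leaving out 1 calf gave 0 (1755, 1759 or 1763) to 1017 (1803), with 1 (1789), 151 (1773), 161 (1769), 220 (1762) and 663 (1758) among the rest. In weaned calves the count was 0 in every alternative. Between weaned and control calves on d 7 it was 28 by DESeq2 and 0 to 1137 (without 1809) when 1 calf was left out; on d 0 it was 0 throughout. The interaction on d 1 gave 0 to 1 (without 1769) when 1 calf was left out, and on d 2 it gave 0 throughout.

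With the first principal component as a covariate, chosen after seeing the data, 411 genes had an unadjusted p under 0.05 for the difference on d 7, and without calves 1758, 1759 and 1770, also chosen then, 1434. The component was made from the same libraries and takes out part of the difference under test. The values with it are therefore a description and no check of a difference. Of the 73 named genes, 58 kept the sign of their difference in all 28 alternatives where they could be tested. Without calves 1758 and 1770 the difference was over 1.5 times smaller in 21 and larger in 2 of them. With that component, the sign turned for SMC4 (-0.47), BRCA2 (-0.21), PRKACB (-0.25), THBS1 (-0.35), UQCRC2 ENSBTAG00000031913 (-0.61), PSMA2 (-0.70), SLC24A5 (-0.0172), PGLYRP1 (0.00863), TRAT1 (-0.67), KLRK1 (-0.0500), GZMA (-0.18), CPA3 (-0.40), MS4A2 (-0.55), RGS1 (-0.0974). THBS1 ran from -0.17 to 0.504 when 1 calf was left out, and also turned among calves on 1 flowcell, with either covariate, with all 48 libraries and without calves 1758, 1759 and 1770 (-0.78, -0.20, -0.14, -0.13, -0.10), and FOS among calves on 1 flowcell (0.35). At these depths, genes near 3 counts per library carry little information, and identity doubts on calves 1758 and 1770 limit every result for weaned calves and every difference between treatments. The count of calls in control calves, from the same fit, also moved without these calves, from 406 to 672.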
